A study of Mus musculus with 10 samples.

Results

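The 6 genes Eomes, Tbx21, Cdhr1, Doc2g, Omp and S100a5 were examined together. They are known from the projection neurons of the olfactory bulb and from the sensory neurons that end there. The members were chosen by name, as the probe sets that the platform annotation gives to 1 of these symbols alone, and were 6 of 19938 genes with a value. Each had a single probe set, so no choice by brightness was needed. RNA came from the whole brains of 5 mice carrying Glo1 on a bacterial artificial chromosome (Tg, labelled Glo1 overexpression) and of 5 wild-type littermates (WT). All 10 mice were untreated adult males on the C57Bl/6J background, and each was measured on 1 array of its own, without pooling. The labels do not say which transgenic line was used or how the bulbs were handled at dissection.

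The olfactory bulb is a small outgrowth at the front of the brain, joined to the nose by the olfactory nerve. Axons of olfactory sensory neurons enter it and form glomeruli, where they contact mitral and tufted cells, the projection neurons that send the signal on to the cortex. Most bulb neurons are inhibitory granule and periglomerular cells. Because the bulb sits on a thin stalk, a whole-brain dissection can hold more or less of it. In whole-tissue RNA, fewer cells of a type and less RNA per cell cannot be told apart.

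The transgene was checked first. Glo1, which encodes the methylglyoxal-detoxifying enzyme glyoxalase 1, read 11.88 to 12.23 log2 units on the Tg arrays and 10.27 to 10.75 on the WT arrays on its brighter probe set. WT replicate 2 stood apart from the other arrays in cerebellar genes. Its mean over 13 measured cerebellar genes was 8.25 log2 units, against 10.55 to 10.67 on the other WT arrays and 10.37 to 10.50 on the Tg arrays. Gabra6, a GABA-A receptor subunit of cerebellar granule cells, read 6.03 there and 10.84 to 11.29 elsewhere. The mean over 7 measured pituitary genes was high on 2 arrays. It was 9.64 on WT replicate 2 (6.56 to 6.72 on the other WT arrays) and 9.28 on Tg replicate 2 (6.65 to 6.84 on the other Tg arrays). Results that rest on WT replicate 2 are therefore given with and without it where both were computed.

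All 6 genes had a higher mean in Tg than in WT brain, and for each the Tg and WT values overlapped. Across all 28944 probe sets tested, the mean was higher in Tg for 47.8%. None of the 6 passed a limma adjusted p of 0.05 (0 of 6), a threshold that 0.0345% of probe sets passed (0.00691% higher and 0.0276% lower in Tg). At an unadjusted limma p under 0.05 there were 2, Eomes and S100a5, against 0.985% of probe sets higher in Tg and 1.23% lower at that level. The 6 differences had a mean of 0.42 and a median of 0.40 log2 units, where the median of all genes was -0.0034. The genes were listed with the higher values of bulb genes in these Tg brains already known, so their common direction is a description and not independent evidence.

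Eomes, a T-box transcription factor of mitral and tufted cells that is also made by unipolar brush cells of the cerebellum, was measured on probe set 10589994. It read 7.79, 7.80, 8.28, 8.33 and 8.14 log2 units on Tg replicates 1 to 5. On WT replicates 1 to 5 it read 7.38, 6.79, 7.74, 7.48 and 8.15. WT replicate 2 was the lowest array and WT replicate 5 lay among the Tg values, while 4 WT arrays lay below the lowest Tg array. The mean was 8.07 ± 0.26 in Tg and 7.51 ± 0.50 in WT (SD, n = 5 each), a difference of 0.56 (95% interval 0.097 to 1.02; limma adjusted p = 0.9998) or 1.47-fold.

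Tbx21, a T-box factor of the same projection neurons and also of some immune cells, was measured on probe set 10390328. It read 7.45, 7.18, 7.69, 7.86 and 7.20 on Tg replicates 1 to 5, and 7.27, 7.31, 7.35, 7.06 and 7.40 on WT replicates 1 to 5. Tg replicates 3 and 4 were high and Tg replicates 2 and 5 lay below the WT mean. The mean was 7.48 ± 0.30 in Tg and 7.28 ± 0.13 in WT (SD, n = 5 each), a difference of 0.20 (-0.076 to 0.48; limma adjusted p = 0.9998). Tbx21 was the member that did not pass a filter on dim probe sets, which kept the upper 60% by mean; the other 5 passed.

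Cdhr1, a cadherin-related surface protein of mitral and tufted cells and of photoreceptors, was measured on probe set 10419015. It read 7.85, 7.53, 8.78, 8.15 and 7.24 on Tg replicates 1 to 5, and 7.18, 7.38, 7.76, 7.20 and 7.60 on WT replicates 1 to 5. Tg replicate 3 was the highest array by 0.63 log2 units, and Tg replicate 5 lay within the lower WT values. The mean was 7.91 ± 0.59 in Tg and 7.43 ± 0.25 in WT (SD, n = 5 each), a difference of 0.49 (-0.042 to 1.02; limma adjusted p = 0.9998).

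Doc2g, a C2-domain protein gene of the double C2 family, was measured on probe set 10460291. It read 8.49, 8.28, 9.01, 8.97 and 8.06 on Tg replicates 1 to 5, and 8.15, 8.30, 8.33, 8.08 and 8.34 on WT replicates 1 to 5. Tg replicates 3 and 4 were close to each other and well above the rest, while Tg replicate 5 was the lowest of all 10 arrays. The mean was 8.56 ± 0.42 in Tg and 8.24 ± 0.12 in WT (SD, n = 5 each), a difference of 0.32 (-0.038 to 0.68; limma adjusted p = 0.9998).

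Omp encodes olfactory marker protein of mature sensory neurons and was measured on probe set 10565705. It read 7.66, 7.56, 8.40, 7.79 and 7.26 on Tg replicates 1 to 5, and 7.36, 7.64, 7.61, 7.28 and 7.52 on WT replicates 1 to 5. Tg replicate 3 was alone above 8 log2 units, and Tg replicate 5 was again the lowest array. The mean was 7.73 ± 0.42 in Tg and 7.48 ± 0.15 in WT (SD, n = 5 each), a difference of 0.25 (-0.12 to 0.62; limma adjusted p = 0.9998).

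S100a5, a calcium-binding protein of active sensory neurons, was measured on probe set 10493816 and had the widest range, 2.19 log2 units. It read 7.75, 7.41, 9.11, 8.19 and 7.40 on Tg replicates 1 to 5, and 6.92, 7.21, 7.75, 7.11 and 7.33 on WT replicates 1 to 5. Tg replicate 3 exceeded every other array by at least 0.92, and 4 WT arrays lay below the lowest Tg array. The mean was 7.97 ± 0.71 in Tg and 7.27 ± 0.31 in WT (SD, n = 5 each), a difference of 0.71 (0.072 to 1.34; limma adjusted p = 0.9998) or 1.63-fold.

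**Figure D1:**
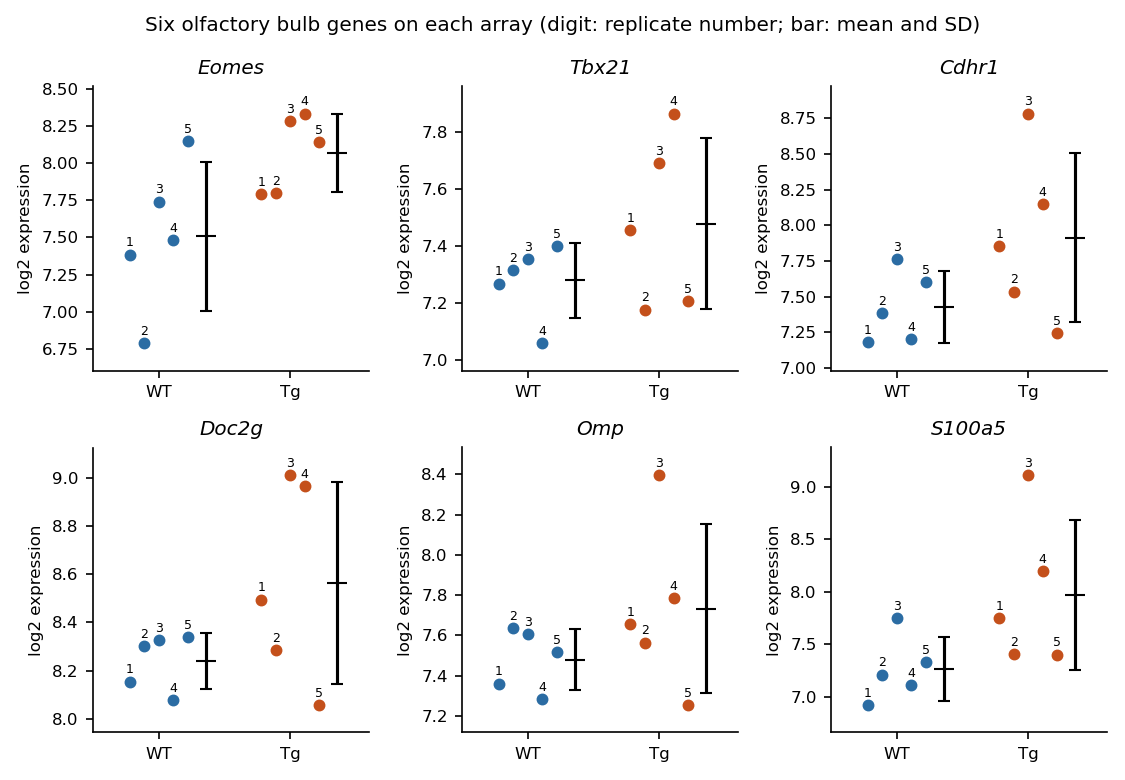
Log2 expression of the 6 genes on each array, with replicate numbers beside the points and mean and SD as bars, WT in blue and Tg in orange. Each panel has its own vertical scale. Tg replicates 3 and 4 are the top 2 arrays in every panel, and the groups overlap in every panel.

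Two-sided exact permutation tests over the 252 assignments of 5 against 5 arrays gave p = 0.0476 for Eomes and for S100a5, and 0.127 to 0.262 for the other 4. The smallest p this design can give is 0.00794. Separation of the groups was seen for 0 of 6 genes, where all 5 Tg arrays lay above all 5 WT arrays for 0.149% of probe sets and below them for 0.311%. The spread was unequal: the SD in Tg was 2.26 to 3.57 times that in WT for 5 genes, and 0.52 times for Eomes. This difference in spread was not tested.

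Leaving out each array in turn kept all 6 differences above 0 in every fit, and 0 of 6 genes passed in any of these 10 fits. The unadjusted limma p was under 0.05 in 8 of the 10 fits for Eomes and in 6 for S100a5. The highest unadjusted limma p in these fits was 0.053 for Eomes and 0.074 for S100a5. The array that moved the size most was Tg replicate 3 for S100a5, Cdhr1 and Omp, Tg replicate 5 for Doc2g, Tg replicate 4 for Tbx21 and WT replicate 2 for Eomes. Without Tg replicate 3, S100a5 differed by 0.42, Cdhr1 by 0.27, Doc2g by 0.21 and Omp by 0.085, their lowest values, and the mean of the 6 differences fell from 0.42 to 0.27. Without Tg replicate 5 the same 4 genes had their highest values, 0.85 for S100a5, 0.66 for Cdhr1, 0.45 for Doc2g and 0.37 for Omp, and the mean was 0.52. Tbx21 ranged from 0.10 without Tg replicate 4 to 0.28 without Tg replicate 2. The difference of Eomes was 0.38 with WT replicate 2 left out and 0.72 with WT replicate 5 left out.

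The arrays that were high were the same from gene to gene. Tg replicate 3 was highest for 4 genes and Tg replicate 4 for the other 2, Eomes and Tbx21. Averaged over the 6 genes, Tg replicate 3 lay 0.80 log2 units above the genes' own means and Tg replicate 4 lay 0.47 above. Tg replicate 1 lay 0.089 above, while Tg replicates 2 and 5 lay at -0.12 and -0.19. The WT arrays lay between -0.37 and 0.012, so that the lower 2 Tg arrays lay inside the WT range.

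**Figure D2:**
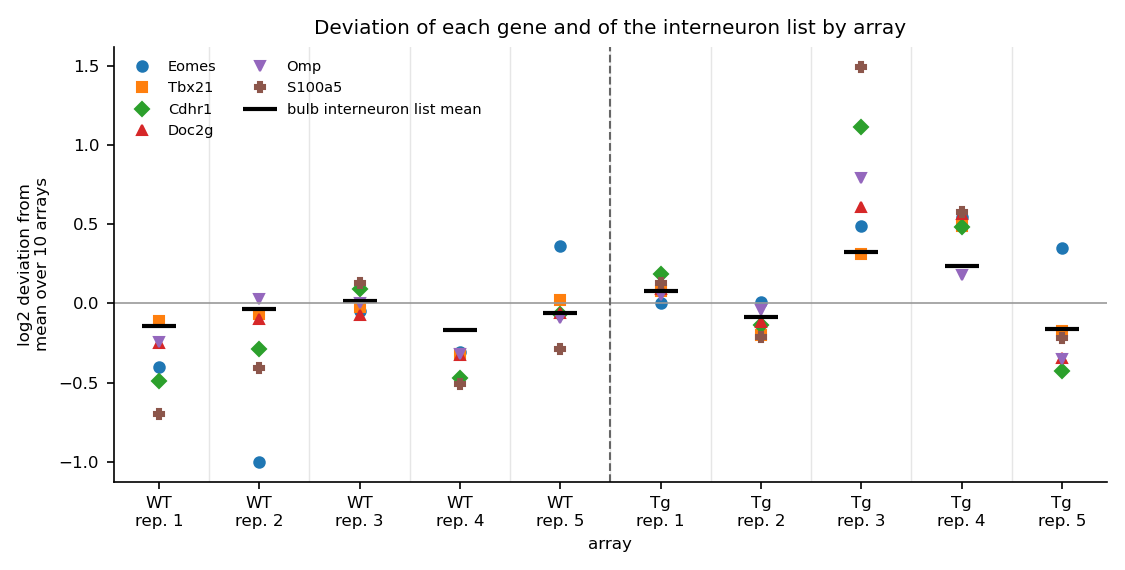
Log2 deviation of each gene (coloured symbols) and of the bulb interneuron list mean (black bars) from its mean over 10 arrays, WT arrays left and Tg arrays right of the dashed line. Tg replicates 3 and 4 are raised for all 6 genes and for the interneuron list, and Eomes departs from the others on WT replicates 2 and 5 and Tg replicate 5.

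The other 5 genes rose and fell together from mouse to mouse, and Eomes followed them more loosely. Because the members were chosen with earlier results of these data known, the p values below are not independent evidence. Over 10 arrays, 10 of the 15 pairs of members passed a permutation test of Pearson's r (100000 resamples, two-sided, Benjamini-Hochberg adjusted over 15), and those 10 were the pairs without Eomes. Cdhr1 and S100a5 had r = 0.97 and Spearman's rho = 0.94 (permutation p = 5.0e-05 and 0.00028, adjusted p = 0.00022 and 0.0018). Tbx21 and Doc2g had r = 0.94 and rho = 0.93 (permutation p = 0.00018 and 0.00037, adjusted p = 0.00054 and 0.0018). Omp and S100a5, the sensory neuron genes, had r = 0.92 and rho = 0.77 (permutation p = 0.0009 and 0.0127, adjusted p = 0.00193 and 0.0211). The lowest of the 10 was Tbx21 with Omp, at r = 0.75 and rho = 0.82 (permutation p = 0.0154 and 0.00588, adjusted p = 0.0231 and 0.0126).

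These relations were next read with the genotype means taken out and with arrays left out. With the genotype means taken out, Cdhr1 and S100a5 had r = 0.97, Tbx21 and Doc2g 0.93, Omp and S100a5 0.92 and Tbx21 and Omp 0.70. The 2 arrays farthest from the median of the first-named gene were then left out. For Cdhr1 and S100a5 r was 0.88, for Tbx21 and Doc2g 0.83 and for Tbx21 and Omp 0.70. The weakest of the 10 by this measure was Tbx21 with S100a5, at 0.54. In these 4 pairs the arrays left out were Tg replicates 3 and 4. For Omp and S100a5 they were Tg replicates 3 and 5, so Tg replicate 4 stayed in, and r was 0.84. Without Tg replicate 3 alone that pair had r = 0.73. The r values without 2 arrays were not tested.

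Eomes had r between 0.36 with Omp and 0.62 with S100a5 (adjusted p = 0.298 and 0.0801 by permutation). Its rank correlation passed with Cdhr1 (rho = 0.68, adjusted p = 0.0432) and S100a5 (rho = 0.72, adjusted p = 0.0316). Without WT replicate 2, where Eomes was lowest, its r values rose to between 0.56 with Omp and 0.71 with Tbx21. With the genotype means taken out, they lay between 0.15 with Omp and 0.41 with S100a5 over 10 arrays. With the genotype means taken out and WT replicate 2 left out, they lay between 0.41 with Omp and 0.63 with Tbx21. Tg replicate 5 lay above a gene's own mean for Eomes alone, and WT replicate 5 for Eomes and, by a little, Tbx21.

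The promoters of Tbx21, Cdhr1, Doc2g and S100a5, which are among the 5 genes that moved together, and of Eomes, which followed them more loosely, are shown to set their sequences side by side. Of the 6 genes, 5 matched an entry in the RefSeq promoter table of build GRCm38.p6, and the 250 bases before each start site are given, 5′ to 3′ on the gene's strand. They lie at chr11:97115332-97115581 (minus strand) for Tbx21, chr14:37098348-37098597 (minus strand) for Cdhr1, chr19:4003135-4003384 (plus) for Doc2g, chr3:90608272-90608521 (plus) for S100a5 and chr9:118477939-118478188 (plus) for Eomes. Capitals mark matches to the motifs searched.

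Tbx21: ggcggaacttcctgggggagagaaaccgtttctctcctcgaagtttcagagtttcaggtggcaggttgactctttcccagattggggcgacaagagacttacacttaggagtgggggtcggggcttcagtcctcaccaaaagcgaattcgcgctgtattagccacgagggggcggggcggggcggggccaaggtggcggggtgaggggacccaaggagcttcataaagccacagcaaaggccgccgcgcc

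Cdhr1: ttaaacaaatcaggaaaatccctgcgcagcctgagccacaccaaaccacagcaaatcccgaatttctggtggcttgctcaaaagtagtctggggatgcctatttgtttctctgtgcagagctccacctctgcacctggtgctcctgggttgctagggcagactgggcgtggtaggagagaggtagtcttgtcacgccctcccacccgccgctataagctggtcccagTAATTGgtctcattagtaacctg

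Doc2g: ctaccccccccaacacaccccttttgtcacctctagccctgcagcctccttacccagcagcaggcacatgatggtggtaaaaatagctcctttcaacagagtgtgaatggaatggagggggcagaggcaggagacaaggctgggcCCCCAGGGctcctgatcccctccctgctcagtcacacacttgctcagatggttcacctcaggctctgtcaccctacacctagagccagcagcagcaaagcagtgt

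S100a5: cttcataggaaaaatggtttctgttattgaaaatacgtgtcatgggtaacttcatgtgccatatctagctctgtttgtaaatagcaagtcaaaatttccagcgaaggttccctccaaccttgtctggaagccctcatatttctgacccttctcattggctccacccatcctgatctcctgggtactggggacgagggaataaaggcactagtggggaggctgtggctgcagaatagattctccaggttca

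Eomes: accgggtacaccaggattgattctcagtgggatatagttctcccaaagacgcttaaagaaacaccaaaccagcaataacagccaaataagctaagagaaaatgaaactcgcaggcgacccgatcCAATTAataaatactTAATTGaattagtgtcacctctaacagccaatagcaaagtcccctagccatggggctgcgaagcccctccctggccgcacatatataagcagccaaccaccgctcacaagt

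Both strands were searched for CCCNNGGG (the core of the EBF palindrome known from sensory neuron genes), GGTGTGA (a T-box half-site), TATAAA (the TATA box), TAATTA (a homeodomain core) and its variant TAATTG. These motifs were counted separately where they overlap. Eomes held TAATTG on each strand, starting at -126 and -111 bases from the start site, and Cdhr1 held it once at -23; 7.17% of 32851 promoter windows of the same length held this motif. Doc2g held CCCNNGGG once at -105, a motif in 11.8% of windows. No match was found in the S100a5 and Tbx21 windows. The T-box half-site was in 3.33%, TATAAA in 12.4% and TAATTA in 4.84% of all windows, and none of the 5 windows held them.

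Other genes of the bulb were compared next, from lists of markers that hold none of the 6 genes. Of 14 granule and periglomerular interneuron genes measured, 13 had a higher mean in Tg, 0 passed the limma adjusted threshold and 3 had an unadjusted p under 0.05, with a median difference of 0.14 against -0.0034 for all genes. Scgn, the calcium sensor secretagogin, differed most, at 0.49 (95% interval 0.016 to 0.97; limma adjusted p = 0.9998). It read 6.31, 6.01, 7.13, 6.94 and 5.95 on Tg replicates 1 to 5 and 5.73 to 6.22 on the WT arrays, with the same Tg arrays high as for the members. Dlx2, an interneuron transcription factor, had the lowest p and differed by 0.28 (0.055 to 0.50).

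Of the 14 interneuron genes, 7 had r over 0.8 with the mean of the 6 members over 10 arrays, compared with 0.356% of all other genes. The other 7 had lower values, down to 0.39 for Sall3, a zinc finger gene of periglomerular cells (0.73 without WT replicate 2). The counts over 0.8 were made over 10 arrays only. Scgn had r = 0.98, Meis2, a homeobox gene of granule cells and striatum, 0.95, and Dlx1, a partner of Dlx2, 0.94. Such genes were 1 of 13 further mitral and tufted cell genes, 1 of 16 further sensory neuron genes, 1 of 6 ensheathing cell genes, 2 of 7 neuroblast genes (Dlx1 and Dlx2, also on the interneuron list) and 0 of 13 cerebellar genes. By list mean, ensheathing cells had the same r with the member mean as interneurons (0.96 each), and sensory neurons had 0.83, neuroblasts 0.76 and mitral and tufted cells 0.40. A list mean is moved most by its genes of widest range, and single genes had lower r. The median over genes was 0.76 for interneurons, 0.61 for ensheathing cells and 0.087 for sensory neurons. For neuroblasts it was 0.094 and for mitral and tufted cells 0.12. Outside the olfactory system, the hindbrain list mean had r = 0.65, above that of mitral and tufted cells. Its median over genes was 0.49, with 0 of 7 genes over 0.8. The other brain and pituitary lists lay between -0.53 for striatum and 0.27 for unipolar brush cells by list mean. All these r values describe the same 10 arrays and carry no test.

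The further mitral and tufted cell genes did not share the direction. Most of them are also expressed elsewhere in the brain, but so are genes of the interneuron list such as Meis2. Whether expression elsewhere bears on the direction of either list was not tested. Of 13 mitral and tufted cell genes measured, 6 had a higher mean in Tg, 0 passed and 1 had an unadjusted p under 0.05. The median difference was -0.013. Shisa3 had the highest r of that list with the member mean (0.86, and 0.96 without WT replicate 2) and differed by 0.10 (-0.15 to 0.36). Nmb, the neuropeptide neuromedin B, came next with r = 0.69, and 0.91 without that array. Lhx5, a LIM homeobox gene, had the largest difference and the lowest p, at -0.16 (-0.30 to -0.012; limma adjusted p = 0.9998).

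Sensory neuron genes besides Omp and S100a5 had 12 of 16 means higher in Tg, with 0 past the threshold, 1 unadjusted p under 0.05 and a median difference of 0.014. Stoml3, a stomatin-like protein of sensory cilia, differed most, at 0.50 (-0.16 to 1.15). It read 8.80 on Tg replicate 3, 6.70 on Tg replicate 5 and 7.63 to 7.74 on the other Tg arrays, against 6.96 to 7.72 on the WT arrays, so that its highest array was that of Omp and S100a5 (r = 0.87 with the member mean, 0.68 without Tg replicate 3). Cnga2, the channel subunit of sensory neuron cilia, had r = 0.24, and 0.38 without WT replicate 2. Rtp1, a chaperone of odorant receptors, had r = 0.27, and 0.51 without that array. Ano2, a chloride channel of the same cells, had the lowest p, at -0.11 (-0.22 to -0.0056; limma adjusted p = 0.9998).

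Among non-neuronal cells of the olfactory system, all 6 genes of olfactory ensheathing cells, the glia of the olfactory nerve, had a higher mean in Tg, 0 passed and 0 had an unadjusted p under 0.05, and the median difference was 0.10. Fabp7, a fatty acid-binding protein also made by astrocytes, had the largest difference, 0.32 (-0.14 to 0.78). Frzb, a secreted Wnt antagonist, had r = 0.86 with the member mean. Support cell genes of the nasal epithelium had 3 of 5 means higher, 0 past the threshold and 1 unadjusted p under 0.05, with a median difference of 0.022. That gene was Cyp2g1, an olfactory cytochrome P450, which differed by 0.25 (0.090 to 0.41; limma adjusted p = 0.9998). All 5 of its Tg values lay above its highest WT value, as they did for 0.149% of all probe sets. Migrating neuroblast genes had 6 of 7 means higher, 0 past the threshold, 1 unadjusted p under 0.05 and a median of 0.023, with Dlx2 leading that list too.

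Each member was then set against the mean of the interneuron list on the same array. That list, like the members, was chosen with earlier results of these data known. The p values that follow describe these arrays and are not independent evidence. The list mean was 8.94, 8.78, 9.19, 9.10 and 8.70 log2 units on Tg replicates 1 to 5 and 8.72, 8.82, 8.88, 8.69 and 8.80 on WT replicates 1 to 5. Pearson's r over 10 arrays was 0.98 for Doc2g, 0.97 for Cdhr1, 0.93 for S100a5, 0.93 for Omp and 0.92 for Tbx21, and Spearman's rho was 0.95, 0.93, 0.83, 0.96 and 0.92. The permutation p values of r were 1.0e-05 for Doc2g, Cdhr1 and Omp, the smallest that 100000 resamples can give, 0.00013 for S100a5 and 0.00044 for Tbx21 (6.0e-05, 0.000585 and 0.00158 adjusted over 18 relations). Those of rho were 9.0e-05, 0.00036, 0.00508, 5.0e-05 and 0.00073 in the order of the r values (0.00081, 0.00216, 0.0183, 0.00081 and 0.00328 adjusted). Without the 2 arrays farthest from the member's median, r was 0.95, 0.93, 0.78, 0.91 and 0.82. Those arrays were Tg replicates 3 and 4, but Tg replicates 3 and 5 for Omp. With genotype means taken out it was 0.98, 0.96, 0.91, 0.91 and 0.90. Eomes had r = 0.49 and rho = 0.47 (permutation p = 0.152 and 0.179, adjusted p = 0.273 and 0.323), and r = 0.64 without WT replicate 2. With genotype means taken out, its r was 0.27 over 10 arrays and 0.50 without WT replicate 2.

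**Figure D3:**
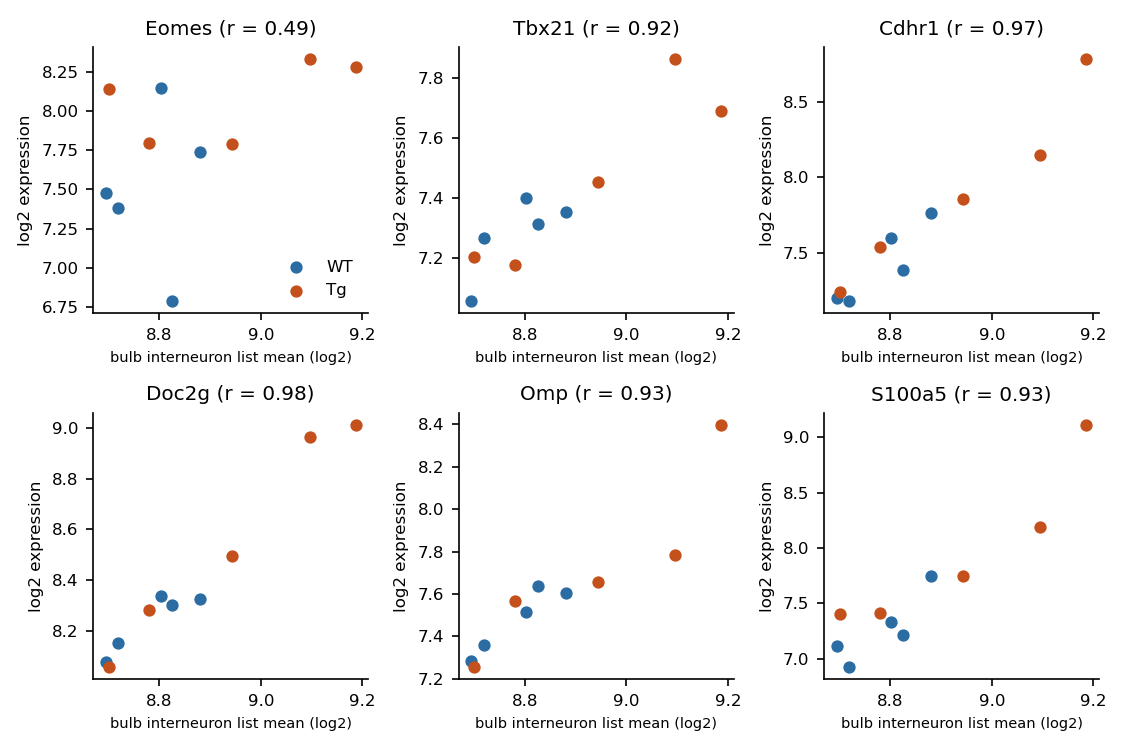
Log2 expression of each gene against the mean of the bulb interneuron list on the same array, WT in blue and Tg in orange, with Pearson's r over 10 arrays in each title. For 5 genes Tg and WT arrays fall along a rising band, with Tg replicates 3 and 4 at its top. The lowest array is Tg replicate 5 for Doc2g and Omp and a WT array for Tbx21, Cdhr1 and S100a5. At nearly the same list mean, S100a5 reads 7.40 on Tg replicate 5 and 6.92 and 7.11 on WT replicates 1 and 4. On these arrays, in that order, Eomes reads 8.14, 7.38 and 7.48. Doc2g reads 8.06, 8.15 and 8.08, and Omp 7.26, 7.36 and 7.28. Tbx21 reads 7.20, 7.27 and 7.06, and Cdhr1 7.24, 7.18 and 7.20. Eomes is scattered (r = 0.49).

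The members rose by different amounts along that band. Within genotypes, 1 log2 unit of the list mean went with 3.25 units of S100a5 (SE 0.54), 2.83 of Cdhr1 (SE 0.31), 1.94 of Doc2g (SE 0.16), 1.86 of Omp (SE 0.31), 1.34 of Tbx21 (SE 0.25) and 0.70 of Eomes (SE 0.94). Without Tg replicate 3 the slopes were 2.35 for S100a5, 2.37 for Cdhr1, 2.01 for Doc2g, 1.32 for Omp, 1.65 for Tbx21 and 0.59 for Eomes, so the order of S100a5 and Cdhr1 and that of Omp and Tbx21 turned. Tg replicates 3 and 4, both high, also differed between genes. Tg replicate 3 exceeded Tg replicate 4 by 0.92 in S100a5, 0.63 in Cdhr1 and 0.61 in Omp, but by 0.045 in Doc2g, and it lay lower in Eomes and Tbx21 (-0.053 and -0.17). The interneuron list differed by 0.091 between those 2 arrays.

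With the interneuron list mean as a covariate in the limma fit, the Tg minus WT difference was 0.042 for Cdhr1 (95% interval -0.16 to 0.24), 0.018 for Doc2g (-0.11 to 0.15), -0.011 for Tbx21 (-0.18 to 0.16) and -0.042 for Omp (-0.24 to 0.16). For S100a5 it was 0.20 (-0.13 to 0.52), and for Eomes 0.45 (-0.096 to 0.997). The mean of the 6 went from 0.42 to 0.11. The intervals narrowed for the 5 genes that moved together, and not for Eomes. Nearly the same values were found without Tg replicate 3, where the mean was again 0.11; Omp was then at -0.041 and S100a5 at 0.20. Without WT replicate 2 the mean was 0.058, with Eomes at 0.23 (-0.16 to 0.62) and Cdhr1 at -0.0037. With the ensheathing cell list mean as the covariate in its place, the mean of the 6 was 0.040, with Eomes at 0.30 (-0.21 to 0.80), S100a5 at 0.072 and the other 4 between -0.065 and -0.0027. The interneuron list mean itself was 0.16 higher in Tg, and that of ensheathing cells 0.13 higher, so a genotype effect on the whole bulb and the amount of bulb in the dissected brains cannot be told apart by these fits.

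**Figure D4:**
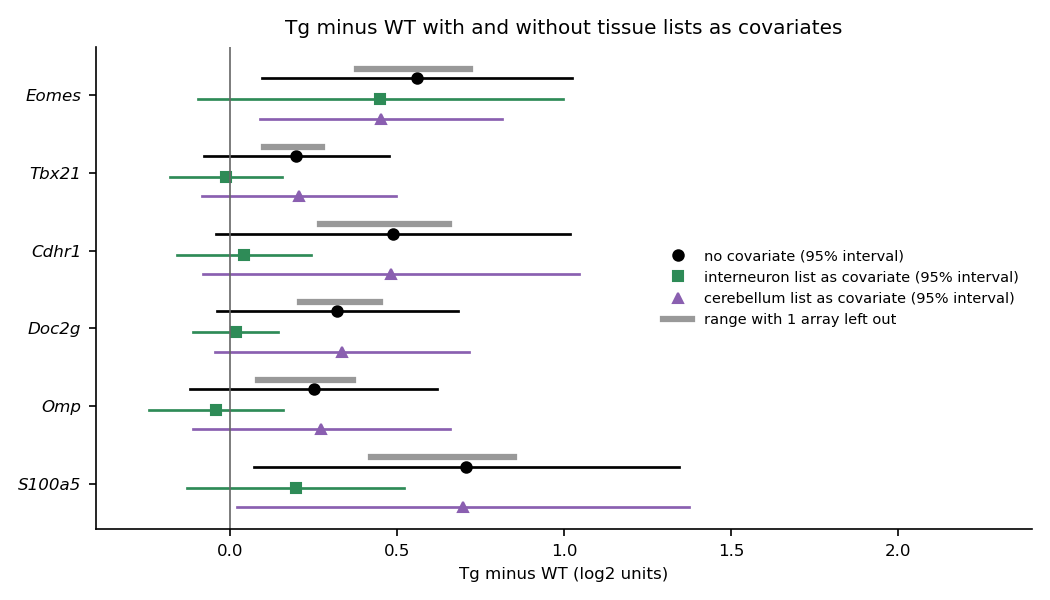
Tg minus WT in log2 units for each gene, with 95% limma intervals without a covariate (black), with the interneuron list mean (green) or the cerebellum list mean (purple) as covariate, and the range with 1 array left out (grey). With the interneuron list the differences of Tbx21, Cdhr1, Doc2g and Omp lie between -0.042 and 0.042, and those of Eomes and S100a5 stay above 0 with intervals that include 0.

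Other brain tissues were compared in the same way. The r of the 5 genes with the cerebellar list mean lay between -0.08 for Omp and 0.16 for S100a5 over 10 arrays, and between -0.62 for Tbx21 and -0.36 for Omp without WT replicate 2. With the striatal list mean it lay between -0.50 and -0.27, and between -0.79 and -0.48 without that array. With genotype means also taken out, the 9 arrays gave r with the cerebellar list of -0.56 for Tbx21, -0.33 for Doc2g, -0.079 for Cdhr1, 0.028 for S100a5 and 0.065 for Omp. With the striatal list they gave -0.24 for Tbx21 and between -0.82 for Omp and -0.52 for Doc2g for the other 4.

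The members other than Eomes kept their differences with the cerebellar list mean as the covariate. Their values were 0.21 for Tbx21, 0.48 for Cdhr1, 0.33 for Doc2g, 0.27 for Omp and 0.70 for S100a5. That covariate mainly sets WT replicate 2 apart from the other arrays. With no covariate and that array left out, the values were nearly the same. They were 0.21 for Tbx21, 0.48 for Cdhr1, 0.34 for Doc2g, 0.29 for Omp and 0.69 for S100a5. The cerebellar fits therefore say little about cerebellar content on the other arrays. Cerebellar genes had 12 of 13 means higher in Tg and a median difference of 0.22, 0 of 13 past the threshold and 0 with an unadjusted p under 0.05. Their list mean differed by 0.30, and by -0.18 without WT replicate 2. Eomes had r = 0.66 and rho = -0.22 with the cerebellar list (permutation p = 0.0988 and 0.539, adjusted p = 0.254 and 0.559), and r = -0.77 without WT replicate 2 (-0.65 with genotype means also taken out), so the positive value rested on that array. Its difference was 0.45 with the cerebellar covariate (0.091 to 0.82; limma adjusted p = 0.597) and 0.30 with both covariates (-0.089 to 0.70).

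Striatal genes had 0 of 8 means higher in Tg, with a median difference of -0.092, 0 past the threshold and 1 unadjusted p under 0.05. Their list mean, which was highest on WT replicate 2, differed by -0.090, and by -0.050 without that array. Eomes had r = -0.79 and rho = -0.58 with the striatal list mean (permutation p = 0.0128 and 0.0870, adjusted p = 0.0383 and 0.196), and r = -0.42 without WT replicate 2, or 0.11 with genotype means also taken out. With the striatal list mean as the covariate, the difference of Eomes was 0.20 (-0.25 to 0.65), the lowest of its fits, and those of the other 5 were 0.20 for Tbx21, 0.34 for Cdhr1, 0.29 for Doc2g, 0.23 for Omp and 0.54 for S100a5, with a mean of 0.30 over the 6. The striatal covariate fit was not repeated without WT replicate 2. S100a5 had r = -0.50 and rho = -0.78 with the striatal list mean (permutation p = 0.122 and 0.0102, adjusted p = 0.273 and 0.0306). Photoreceptor and pineal genes, which would share Cdhr1, had a list mean between 6.31 and 6.45 on the Tg arrays and between 6.21 and 6.47 on the WT arrays, with 0 of 7 past the threshold and 0 with an unadjusted p under 0.05. Neocortical genes had 2 of 9 means higher and hindbrain genes 7 of 7, with medians of -0.021 and 0.090, 0 past the threshold and 0 with an unadjusted p under 0.05 in each. The part of these tissues in the members' differences was not tested beyond the fits given.

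**Figure D5:**
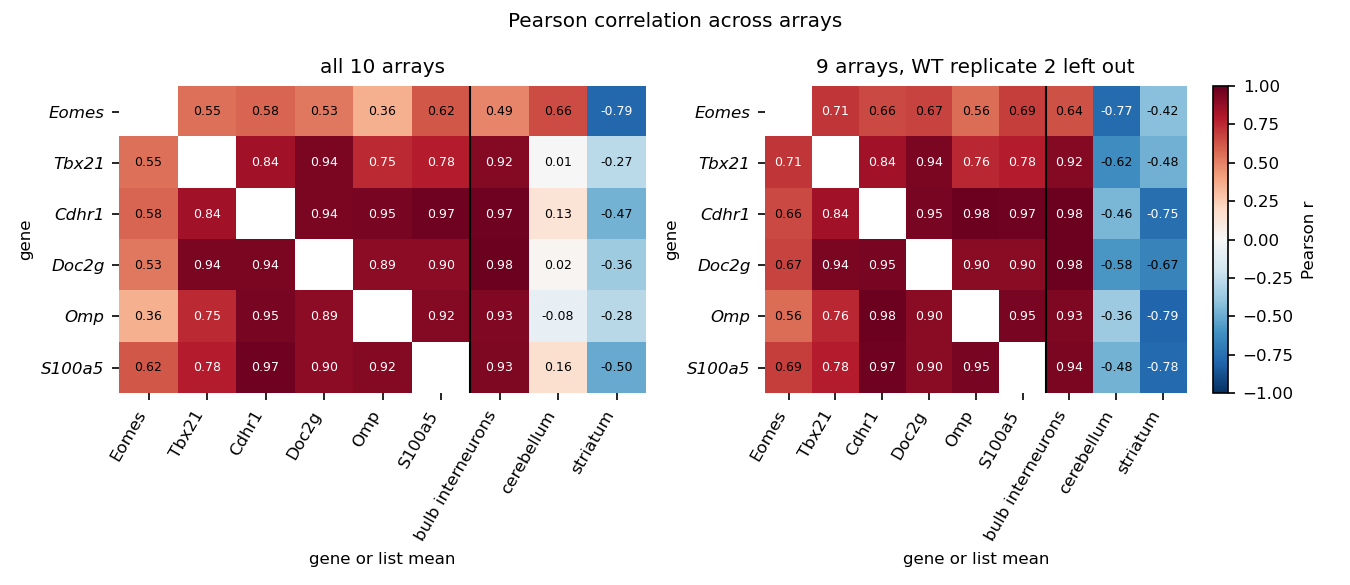
Pearson's r across arrays for each pair of genes and for each gene with the means of 3 tissue lists, over all 10 arrays (left) and without WT replicate 2 (right), in colour from -1 (blue) to 1 (red). The 5 genes other than Eomes form a red block that continues into the interneuron column in both panels, while the Eomes value for cerebellum turns from 0.66 to -0.77.

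Genes whose pattern over the 10 arrays was most like that of the members were ranked by Pearson's r of deviations from genotype means, over 12904 other genes in the upper 60% of probe sets. The 8 highest were Islr (r = 0.96), Meis2 (0.95), Tubb2b (0.94), Dlx1 (0.94), Mea1 (0.94), Ankrd34c (0.93), Sgta (0.92) and Shisa3 (0.92). Islr encodes a leucine-rich repeat protein and Tubb2b a neuronal beta-tubulin. Their Tg minus WT differences lay between -0.023 for Ankrd34c and 0.24 for Dlx1. The 3 lowest were Sidt1 (-0.96), F11r (-0.92) and 1700086D15Rik (-0.92). Of the 8 highest, Islr, Meis2 and Shisa3 were also among the 8 highest without WT replicate 2, and 4 were among them without Tg replicate 3, namely Islr, Meis2, Dlx1 and Ankrd34c.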

How the data were processed

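The deposited table held log2 expression values per probe set, 1 array per mouse, which the authors produced in Expression Console (version 1.1.2 in the submitters' processing notes); the background correction and normalization used there are not stated in the labels. They ran from 3.28 to 14.74 and were used as deposited. Dim probe sets compress differences. Rows before the first transcript cluster (6612 of 35556, none with a gene) were left out, and 28944 probe sets were tested. Of these, 21789 had 1 gene; symbols were updated through Entrez identifiers (21698 matched GRCm38.p6), and a gene was read from its brightest probe set.

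Tg and WT were compared with limma 3.58.1 (lmFit, eBayes, no covariate) under R 4.3.3, and p-values were adjusted by Benjamini-Hochberg across the 28944 probe sets; that step was tested on simulated data. Single genes had exact permutation tests, and correlations permutation tests with 100000 resamples in numpy 2.4.6. A list mean is the mean log2 value of its measured genes. The members and lists were chosen with earlier results of these data known. Named were the members, Glo1, in each olfactory and the neuroblast list the genes of largest difference and lowest p, the cerebellar gene of widest range, and the genes ranked by likeness; Meis2, Dlx1, Shisa3, Cnga2, Rtp1, Frzb, Nmb, Sall3 and others given for their r were chosen after their values were seen. Alternatives covered normalization, dim probe sets, control rows, variance model, array weights, replicate number, label serial number, tissue covariates, averaging of probe sets and leaving out each array; 5 covariate fits and the settings of the list results were added after seeing the data. Replicates are separate mice per the labels, and 5 arrays per group limit the precision.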

Additional observations from a re-analysis of the deposited data

Results flagged for a closer look

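An array far from the other 4 of its group was looked for in 38 sets of 5 arrays, the 6 genes and 13 list means in each group. None of the 6 genes had one, and 7 list means did; about 5% would be flagged by chance. On WT replicate 2 the cerebellar list mean was 8.25 log2 units (10.55 to 10.67 on the other WT arrays), the unipolar brush cell list mean 9.80 (10.34 to 10.47), the striatal list mean 10.75 (10.54 to 10.56) and the pituitary list mean 9.64 (6.56 to 6.72). On Tg replicate 2 the pituitary list mean was 9.28 (6.65 to 6.84 on the other Tg arrays). On Tg replicate 3 the unipolar brush cell list mean was 10.42 (10.35 to 10.37), and on Tg replicate 5 the neocortical list mean was 10.13 (10.16 to 10.17). Among the unipolar brush cell genes, 3 of 5 were measured.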

How the results depend on the processing

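In all 26 alternatives 0 of 6 members passed, with a lowest adjusted p of 0.363. Of 155 refitted member differences, 142 kept the sign of the reported value. The sign turned for Tbx21 (-0.011, -0.012, -0.017, -0.012 and -0.023) and Omp (-0.042, -0.041, -0.018, -0.028 and -0.065) with the interneuron covariate, the same without Tg replicate 3, the same without WT replicate 2, the interneuron and cerebellum covariates together, and the ensheathing cell covariate, in that order. Cdhr1 turned to -0.0037 with the interneuron covariate without WT replicate 2 and to -0.037 with the ensheathing cell covariate, and Doc2g to -0.0027 with the latter. The mean of the 6 differences moved by more than the SD between arrays, to 0.058, 0.074 and 0.040, in the last 3 of those fits, where the cause was not tested. With the striatal list as covariate, 37 probe sets and 3 list genes passed in place of 10 and 0; the cause was not tested. With 1 array left out, the mean difference ranged from 0.27 to 0.52, the probe sets past the threshold from 9 to 11, the member pairs from 9 to 12 of 15, the relations with list means from 5 to 9 of 18, and the list genes stayed at 0. The replicate number as a block gave 11 probe sets and a mean difference of 0.42, and it changed no call of a member. Same-numbered arrays had correlations of deviations from -0.47 to 0.45, with 2 of 5 pairs above 0.1. The labels do not say whether the numbers pair the mice, and these few correlations cannot settle it. Signal over background could not be set for single arrays.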

Other observations

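With WT replicate 2 left out, the ranking by likeness to the members over 9 arrays began with Vipr2, a receptor for vasoactive intestinal peptide (r = 0.98), Shisa3 (0.98), Atp6v1e2 (0.97), Islr (0.97), Chac1 (0.96), Lgr5 (0.95), Selenop (0.95) and Meis2 (0.95). Lgr5, a receptor for R-spondins, differed by 0.27 log2 units between Tg and WT and Vipr2 by 0.14. The lowest were Kcnq3, a potassium channel subunit (r = -0.99), Sidt1 (-0.97) and B130006D01Rik (-0.96). These rankings pick extremes among 12904 genes over few arrays and carry no test.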
